A study of Mus musculus with 4 samples.

Results

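The CC chemokines are small secreted proteins that guide leukocytes along concentration gradients, and 10 of their genes are described here: Ccl1, Ccl2, Ccl3, Ccl4, Ccl5, Ccl6, Ccl7, Ccl9, Ccl17 and Ccl22. They were found by gene name among the 39429 mouse probes of the array, control spots left out. All 10 genes were found, each with 1 probe, so each gene rests on a single oligonucleotide. The RNA came from splenocytes of 8-week-old female C57BL/6 mice, kept for 72 h in conditioning medium with the B cell stimuli IL-4 and LPS. The imatinib group (2 arrays) received 10 µM imatinib, an inhibitor of the ABL, KIT and PDGFR kinases. The control group (2 arrays) received none, and was alike in strain, sex, age, medium and time. The series asks how imatinib acts on B cell activation and class switching. Nothing in the labels says that replicates came from separate animals or cultures, so p-values measure only the spread between these samples, which may be technical.

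CC chemokines carry a pair of adjacent cysteines near their amino terminus and act through G protein-coupled receptors named CCR. Receptors and ligands are promiscuous, in that a ligand can bind several receptors and a receptor several ligands. In the spleen, macrophages, dendritic cells, activated T cells and activated B cells are among the sources. LPS acts through NF-kB to induce inflammatory members such as Ccl2, Ccl3 and Ccl4, and IL-4 acts through STAT6 to induce others, such as Ccl17 and Ccl22.

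Because several members are close paralogs, the probes themselves bear on every value. The middle 30 bases (bases 16 to 45 of 60) of the probes of the paralogous pairs are shown here, 5′ to 3′, as the array design gives them.
Ccl2: tgtgacagtgaactagtgtgactcggactg
Ccl7: atgaaatgtgttgatcacggtcctaaggga
Ccl3: gtacaatagatgctttgtttataccagaga
Ccl4: agttataggacgcgtgtctcccatggagat
Ccl6: gatacaagcttaagccgggtaatatctagc
Ccl9: aaattctgccttagcccagtagtatgtctg
The longest exact run that any of the 10 probes shared with another member's probe was 7 to 9 bases over the full 60. Against probes of other genes on the array the longest run was 12 to 15 bases. None held a repeat of a 2-base or 3-base unit of 12 bases or more. Probes were compared only with probes and not with transcripts, so a match to the transcript of a paralog could go unseen. Hybridisation to partly matching transcripts was not measured.

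All 10 CC chemokine genes were higher with imatinib. Their log2 differences ran from 0.92 for Ccl5 to 4.71 for Ccl1, and to at least 4.71 for Ccl7, which was not above background in the control group. The median was 2.72, and 9 of the 10 were at least 2-fold (a log2 difference of at least 1). All 10 passed the threshold of an adjusted p under 0.05 in the limma fit, with adjusted p from 0.00067 to 0.0043. Across all 25375 probes tested, 19.3% passed in the higher direction, 22.5% in the lower direction, and 6.1% were called higher by at least 2-fold, with a median log2 difference of 0.00090. The imatinib and control arrays did not overlap for any of the 10 genes, where imatinib arrays lay wholly above control arrays for 35.2% of the probes tested. Since the genes were selected as a family with earlier results of these data known, these counts describe them and do not stand as a test of the family.

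**Figure D1:**
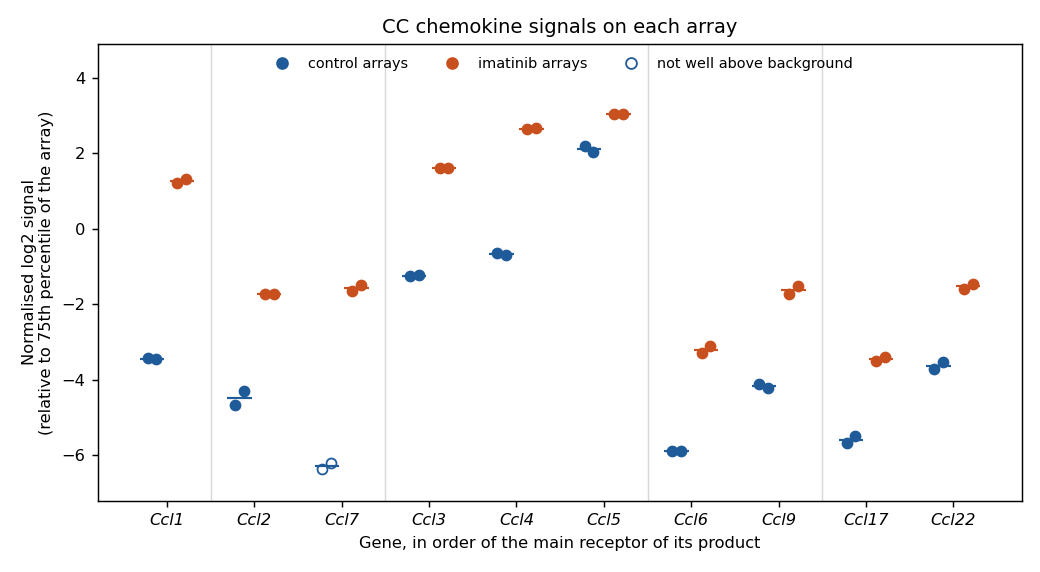
Normalised log2 signal (y axis, after subtracting the array's 75th percentile) of each CC chemokine gene (x axis) on the 2 control arrays (blue) and the 2 imatinib arrays (orange), with short lines at the group means and open points where neither array of the group was well above background. Every imatinib point lies above both control points of the same gene, with the smallest gap for Ccl5 and open points only for Ccl7 in the control group.

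Levels in the text are normalised log2 signals, that is, log2 of the background-subtracted fluorescence minus the 75th percentile of the array. A level can be compared between arrays for 1 probe but not between probes. Errors are SD over n = 2 arrays of each group or the SE of the difference from the limma fit. No spot was saturated on any array, and 25018 to 26762 probes an array were well above background. In bulk RNA, a change in the number of cells of a type and a change in RNA per cell cannot be told apart. The B cell markers Cd79a and Cd79b were above background on all 4 arrays. Of 10 macrophage markers tested (13 listed), 6 rose and 1 fell, with a median log2 difference of 1.08, and the markers C1qa, C1qc and Fcgr1 were not above background on any array. Adgre1 rose by 3.60 and Lyz2 by 2.81, Csf1r and Mpeg1 did not pass (0.28 and -0.15), and the fall of Itgam (-1.12) rests on a probe with a 20-base repeat, where another Itgam probe was at 0.44. The summed linear signal of the list, which its brightest probes weight most, was 7.15 to 7.61 with imatinib and 6.74 to 7.17 without, in units of the 75th percentile of the array. That sum holds the Itgam repeat probe, the brightest of the list without imatinib. Levels of this probe were 0.60 and 0.73 with imatinib and 1.86 and 1.71 without, so the sum does not speak for the other markers. Of 12 T cell markers, 10 rose and none fell, with a median of 1.60 and a summed signal of 41.2 to 41.6 with imatinib and 21.5 to 22.4 without. Of 8 B cell markers 1 rose and 4 fell (median -0.16; summed signal 311 to 316 and 322 to 346), of 7 tested neutrophil markers 5 rose and 1 fell (median 0.95; 3.03 to 3.33 and 3.30 to 3.55), and of 5 tested mast cell and basophil markers 4 rose and 1 fell (median 1.30; 0.303 to 0.308 and 0.151 to 0.157). Of 4 tested NK cell markers 3 rose (median 0.56; 3.02 to 3.12 and 2.15 to 2.25), of 6 tested dendritic cell markers (Ccr9 among them) 2 rose and 2 fell (median 0.15; 106 to 109 and 83.6 to 96.8), and of 7 fibroblast markers only Col1a2 was tested and did not pass (0.102 to 0.104 and 0.0756 to 0.0937). Most of the dendritic sum came from Siglech, which did not pass (0.30, adjusted p = 0.077). Flt3 and Batf3 fell by 1.41 and 1.18, Ccr9 rose by 2.64, and Itgax was at least 2.56-fold higher. Most of the neutrophil sum came from Ly6g, which fell by 0.59, and Elane, which did not pass (0.11). The neutrophil markers that rose were Mmp8 (4.20), S100a8 (3.26), S100a9 (1.96, above background on 1 control array), Mpo (0.95) and Camp (0.48). Defining markers above background on no array were Ms4a2, Fcer1a, Gata2 and Cd200r3 (mast cells and basophils), Ngp and Cxcr2 (neutrophils), Ncr1, Klrb1c and Klrk1 (NK cells), Xcr1 and Clec9a (dendritic cells), and the other 6 fibroblast markers. The part of these cell types in the chemokine rises was not tested.

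Ccl1, the ligand of CCR8 that activated T cells and mast cells are known to make, had the largest rise among members above background on all 4 arrays. With imatinib its level was 1.23 and 1.31, and without imatinib -3.42 and -3.45. Both imatinib arrays stood far above both control arrays, and each pair agreed closely. The difference was 4.71 (SE 0.065, adjusted p = 0.00067), a 26.1-fold rise with a 95% interval of the limma fit from 23.1 to 29.6. Of the tested probes, 5 had a larger fitted difference, which put Ccl1 at rank 6. With normexp, a background correction that adds an offset of 50 and shrinks differences of dim probes, the rise was 14.7-fold. The receptor gene Ccr8 was above background in both groups on its tested probe and differed by 0.01 (SE 0.22, adjusted p = 0.96), with an interval from -0.59 to 0.62.

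The search for genes like Ccl1 covered tested probes above background on all 4 arrays with a plain gene symbol, which left out Ccl7. Of these, the genes whose 4 values, centred on their own mean, lay closest to those of Ccl1 were Gpnmb, Pf4 and Clec7a. Gpnmb is a lysosomal glycoprotein of macrophages, Pf4 is platelet factor 4, and Clec7a is the beta-glucan receptor dectin-1. Their root mean square distances from Ccl1 were 0.18, 0.19 and 0.20 on the log2 scale over the 4 arrays. They differed between groups by 4.64, 4.35 and 4.36. With 4 arrays in 2 groups this likeness says little more than that their rises were of similar size, and no member fell for which such a search could be made.

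Ccl2 and Ccl7, the monocyte chemoattractant proteins that bind CCR2, both rose. Ccl2 had levels of -1.72 and -1.73 with imatinib and -4.65 and -4.29 without, a difference of 2.75 (SE 0.14, adjusted p = 0.0013) or 6.73-fold, with an interval from 5.17 to 8.77. The imatinib arrays were nearly equal, whereas the control arrays differed by more than for any other member (SD 0.25). Ccl2 was the only member spotted 10 times an array. On the first control array its processed signal ran from 22.9 to 34.2 over the spots (median 29.8) and on the second from 39.2 to 46.6 (median 44.3), so the spots of the 2 control arrays did not overlap before scaling. On the imatinib arrays the medians were 212 and 204, and all 10 spots were above background on every array.

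Ccl7 was the only member below the detection limit in a group, as neither control array was well above background. Its levels were -1.63 and -1.50 with imatinib and -6.36 and -6.19 without. The control signals are therefore only an upper limit, and the gene was at least 26.2-fold higher with imatinib on the processed signal (adjusted p = 0.00067). That bound compares group means and makes no allowance for the spread between arrays. The lower end of the 95% interval of the limma fit was 21.8-fold. It entered the test through the imatinib group alone, and was not tested when only probes above background on all 4 arrays were kept. The bound was set for each control array against the higher of the probe's own signal and the lowest signal of any probe well above background, and the probe's own signal was the higher on both. With normexp the rise was 4.11-fold for Ccl7 and 3.03-fold for Ccl2, so the sizes depend on the background correction. Their receptor gene Ccr2 was not well above background on any array.

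Ccl3, Ccl4 and Ccl5, the MIP-1 alpha, MIP-1 beta and RANTES genes whose products attract T cells and monocytes, rose to different extents. Ccl4 had levels of 2.65 and 2.67 with imatinib and -0.64 and -0.69 without, a difference of 3.32 (SE 0.060, adjusted p = 0.00067) or 10.0-fold. Ccl3 had levels of 1.62 and 1.61 with imatinib and -1.24 and -1.22 without, a difference of 2.85 (SE 0.057, adjusted p = 0.00067) or 7.20-fold. Both were bright enough that normexp gave similar sizes, 9.09-fold for Ccl4 and 6.15-fold for Ccl3. Their intervals, 3.16 to 3.49 and 2.69 to 3.01 on the log2 scale, did not overlap.

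Ccl5, which T cells and NK cells are known to make, had the smallest rise of the 10 genes on the processed signal, while with normexp Ccl17 rose less (0.85 against 0.92). Its level was 3.04 on each array with imatinib, against 2.20 and 2.03 without. The groups were separate but close, and the difference of 0.92 (SE 0.082, adjusted p = 0.0043) was 1.90-fold with an interval from 1.62 to 2.22. The background correction hardly changed it, at 0.92 with normexp. Scaling on the spike-in controls, which moved the median of all probes by -0.28, gave 0.64. Ccl5 stood at rank 1790 among the tested probes, so 7.05% of them rose more.

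Ccl6 and Ccl9, rodent chemokines of myeloid cells that bind CCR1, rose by similar amounts. Ccl6 had levels of -3.29 and -3.11 with imatinib and -5.89 and -5.88 without, a difference of 2.68 (SE 0.084, adjusted p = 0.00074) or 6.41-fold. Ccl9 had levels of -1.74 and -1.52 with imatinib and -4.11 and -4.22 without, a difference of 2.54 (SE 0.10, adjusted p = 0.00093) or 5.80-fold. Their intervals overlapped, at 2.45 to 2.91 and 2.26 to 2.81 on the log2 scale. Ccl6 was dim, with processed signals of 12.5 and 14.5 on the control arrays, and with normexp its rise was 2.06-fold and that of Ccl9 2.98-fold. Their receptor gene Ccr1 was not well above background on any array.

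Ccl17 and Ccl22, the TARC and MDC genes whose products share the receptor CCR4 and attract T helper cells, also rose together. Ccl17 had levels of -3.51 and -3.40 with imatinib and -5.67 and -5.49 without, a difference of 2.13 (SE 0.093, adjusted p = 0.0011) or 4.38-fold. Ccl22 had levels of -1.58 and -1.45 with imatinib and -3.72 and -3.53 without, a difference of 2.11 (SE 0.098, adjusted p = 0.0012) or 4.31-fold. The difference between the rises was 0.02, with intervals of 1.87 to 2.39 and 1.84 to 2.38. Ccl17 was dim in the control group, at processed signals of 14.5 and 19.0, and with normexp it rose 1.80-fold and Ccl22 2.65-fold. Ccr4, their receptor gene, differed by 0.64 (SE 0.11, adjusted p = 0.016), a call lost without imatinib 1 (adjusted p = 0.10), without imatinib 2 (0.070) and without a filter on dim probes (0.062).

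In the order of their rises, the 9 members above background on all 4 arrays fell into 4 steps whose neighbouring 95% intervals did not overlap. Ccl1 came first (4.71) and Ccl4 second (3.32), and Ccl7 has no measured place, since its difference is a lower bound. Ccl3 (2.85), Ccl2 (2.75), Ccl6 (2.68), Ccl9 (2.54), Ccl17 (2.13) and Ccl22 (2.11) followed, and within this run each neighbour's interval overlapped the next. Ccl5 came last. With normexp the order was Ccl1, Ccl4, Ccl3, Ccl7, Ccl2, Ccl9, Ccl22, Ccl6, Ccl5 and Ccl17, from 3.88 down to 0.85, and 8 of the 10 were at least 2-fold.

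**Figure D2:**
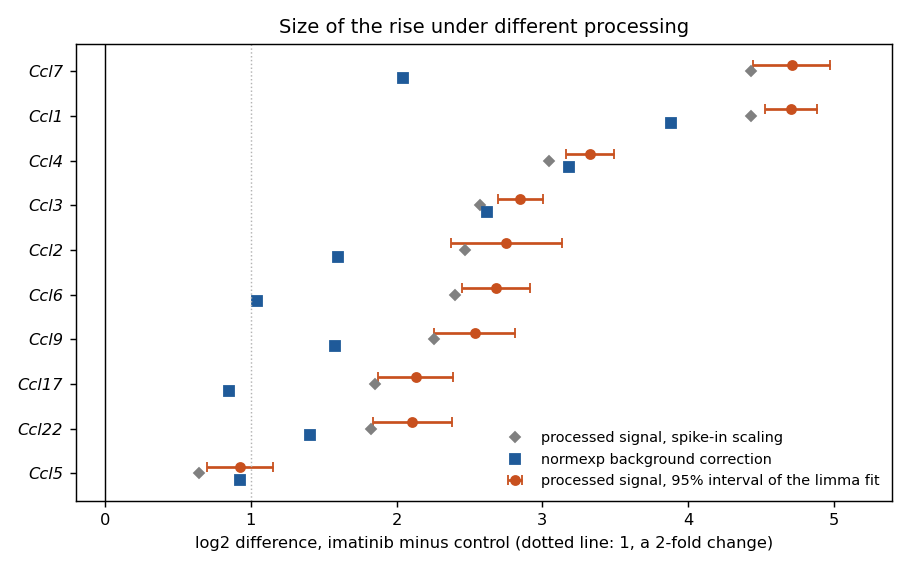
The log2 difference of each member (imatinib minus control, x axis) from the processed signal with the 95% interval of the limma fit (orange), from the processed signal scaled on spike-in controls (grey) and with normexp background correction (blue). All points lie above 0, and the gap between orange and blue is widest for Ccl7 (at least 4.71 against 2.04) and almost absent for Ccl5 (0.92 in both). An interval is drawn for Ccl7 too, but its difference is a lower bound, so the upper end does not limit the rise.

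Set against the whole array, 7 of the 10 members lay among the 1% of tested probes with the largest rises and 9 among the top 5%. Ccl1 ranked 6, Ccl4 80, Ccl3 166, Ccl2 193, Ccl6 207 and Ccl9 250. Ccl17 and Ccl22 ranked 432 and 442. Ccl7 is counted among the top 1% at its lower bound and has no exact rank. These ranks are by the log2 difference of the processed signal, and ranks under normexp were not computed.

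**Figure D3:**
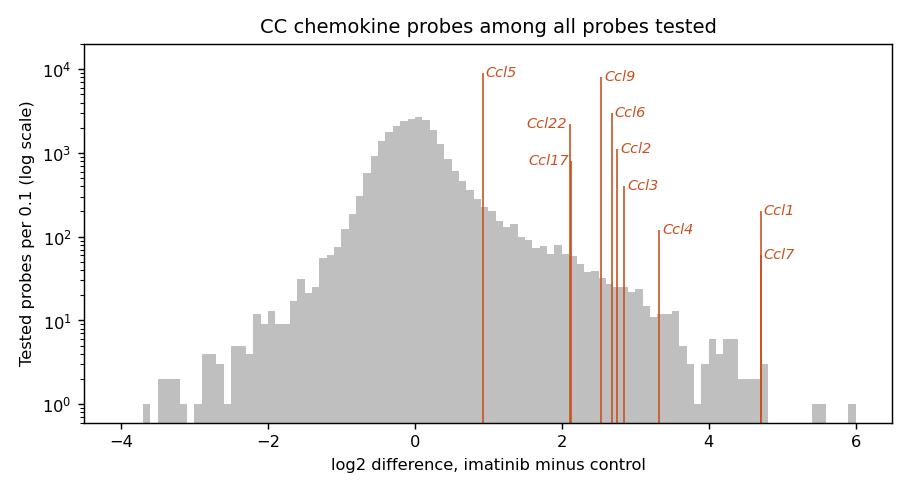
Number of tested probes by log2 difference (imatinib minus control, x axis, bins of 0.1, y axis on a log scale), with orange lines at the 10 CC chemokine probes, whose line heights only separate the names. Ccl5 lies on the shoulder of the main peak, and the other 9 lie in the upper tail above 2.

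The members sit in 3 gene clusters, and the mouse assembly GRCm38.p6 gives the order of genes in each. In the chromosome 11 cluster from Ccl2 to Ccl1, Ccl2, Ccl7 and Ccl1 rose, and Ccl8, which lies between them, was at least 3.18-fold higher. Ccl12, also between them, differed by 1.08, a call lost without imatinib 1 (adjusted p = 0.11), without imatinib 2 (0.097) and without a filter on dim probes (0.080), and Ccl11 was not above background on any array. In the second chromosome 11 cluster, Ccl5, Ccl9, Ccl6, Ccl3 and Ccl4 lie in this order, and their differences were 0.92, 2.54, 2.68, 2.85 and 3.32. Beyond Ccl4, the whey acidic protein genes Wfdc17 and Wfdc18 rose by 1.76 (SE 0.085, adjusted p = 0.0012) and 4.26 (SE 0.93, adjusted p = 0.029), Wfdc18 being above background on 1 control array, and Taf15, the first tested gene before Ccl5, differed by 0.24 (SE 0.075, adjusted p = 0.067). On chromosome 8, Cx3cl1, which encodes the chemokine fractalkine and lies between Ccl22 and Ccl17, rose by 2.91 (SE 0.098, adjusted p = 0.00075). The flanking genes there were Arl2bp at 0.12 (adjusted p = 0.27), Ciapin1 at -0.41 (adjusted p = 0.014) and Coq9 at -0.35 (adjusted p = 0.033). These neighbours were named after their values were seen.

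**Figure D4:**
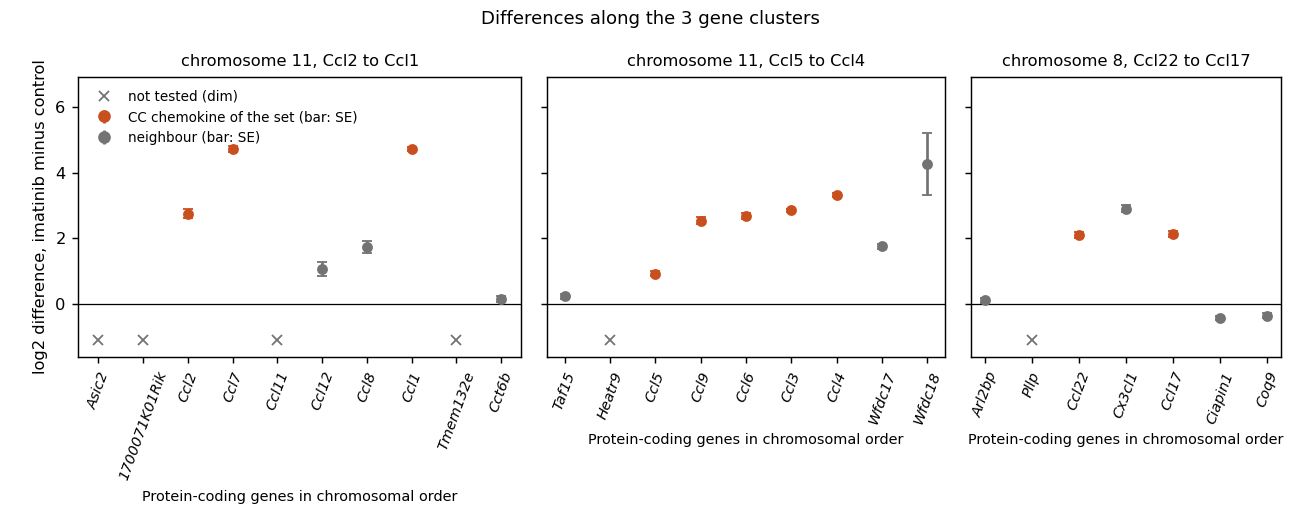
The log2 difference (imatinib minus control, y axis, bars are SE) of protein-coding genes in chromosomal order (x axis, order only) around the 3 clusters, with the CC chemokines in orange, neighbours in grey and dim, untested genes as crosses at the bottom. The orange points run from 0.92 for Ccl5 to 3.32 for Ccl4 in the middle panel, and the tested flanking genes lie between -0.41 (Ciapin1) and 0.24 (Taf15), except Wfdc17 (1.76) and Wfdc18 (4.26). Ccl7 and Ccl8 were not above background without imatinib, so their bars do not limit the rise.

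RefSeq promoter sequence was at hand for 6 members, Ccl1, Ccl3, Ccl6, Ccl9, Ccl17 and Ccl22, and 3 of them are printed because they hold a match to the binding motif of NF-kB or STAT6, the factors through which LPS and IL-4 act. Each covers the 250 bases before the start, 5′ to 3′ on the strand of the gene, from GRCm38.p6, with the matching letters in capitals.
Ccl1, chr11:82179813-82180062, minus strand: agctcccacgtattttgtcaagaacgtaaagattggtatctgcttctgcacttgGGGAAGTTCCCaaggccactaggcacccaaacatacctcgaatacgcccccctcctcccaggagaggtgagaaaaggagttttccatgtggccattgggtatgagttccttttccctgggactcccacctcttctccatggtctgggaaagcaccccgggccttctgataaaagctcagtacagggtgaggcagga
Ccl9, chr11:83578637-83578886, minus strand: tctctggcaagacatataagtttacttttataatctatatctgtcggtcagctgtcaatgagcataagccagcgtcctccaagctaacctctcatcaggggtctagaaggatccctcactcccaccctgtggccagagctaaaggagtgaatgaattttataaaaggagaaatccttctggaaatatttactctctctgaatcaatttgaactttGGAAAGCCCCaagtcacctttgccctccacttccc
Ccl17, chr8:94810203-94810452, plus strand: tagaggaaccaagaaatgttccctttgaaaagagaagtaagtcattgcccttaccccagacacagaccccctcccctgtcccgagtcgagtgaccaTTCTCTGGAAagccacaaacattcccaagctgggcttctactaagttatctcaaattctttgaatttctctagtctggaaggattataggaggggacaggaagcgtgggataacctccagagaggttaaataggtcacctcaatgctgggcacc
The NF-kB consensus, searched on both strands, was found in Ccl1 (2 overlapping matches, 1 on each strand, between bases 196 and 186 before the start) and in Ccl9 (bases 35 to 26), and in 7.25% of all 32851 promoter windows of the same length. The STAT6 motif TTCNNNNGAA was found in Ccl17 (bases 154 to 145) and in 5.85% of all windows. The AP-1 motif TGANTCA, found in 6.75% of windows, occurred in Ccl9 alone of the 6, the cyclic AMP response element TGACGTCA (1.55% of windows) in none, and TATAAA (12.4% of windows) in Ccl9. Ccl3, Ccl6 and Ccl22 held none of these letters in this window. The RefSeq gene model of Ccl17 begins further upstream than the start used here. A match describes letters, and binding was not measured.

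Ccl8, Ccl12 and Ccl25 passed the test among the other CC ligand genes, though only the call for Ccl8 held in every setting that tested it. Of 14 listed, 12 had a probe and 7 were tested. On the brightest probe of each gene 3 rose and none fell, with a median log2 difference of 0.32. The brightest Ccl27a probe did not pass (-0.06), but a dimmer probe of this gene passed as lower (-0.44, adjusted p = 0.021). Ccl8 (MCP-2) had levels of -4.77 and -4.42 with imatinib and -6.15 and -6.50 without, was not above background in the control group, and was at least 3.18-fold higher (adjusted p = 0.0061). Its log2 difference with normexp was 0.47. Ccl12 (MCP-5) differed by 1.08 (SE 0.22, adjusted p = 0.024) and by 0.28 with normexp, was above background on 1 control array, and lost its call in the settings named above. Ccl25 differed by 0.32 (SE 0.081, adjusted p = 0.041), and the call was lost when any of the 4 arrays was left out (adjusted p = 0.0502 to 0.21). It was also lost with spike-in scaling (0.73), with median centring (0.30), without a filter on dim probes (0.13), with the replicate number as a block (0.063) and with the pairing crossed (0.070). The eotaxin gene Ccl11, with Ccl20, Ccl26 and Ccl28, was not above background on any array, and Ccl24 was on 1 imatinib array. Ccl21b, whose near-identical copies make its target uncertain, differed by -0.16 (SE 0.11, adjusted p = 0.32).

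Of 10 CC receptor genes, 6 were tested and 4 rose, none fell, and the median log2 difference was 0.73. Ccr9, the receptor of Ccl25, rose most, by 2.64 (SE 0.080, adjusted p = 0.00074), from levels of -3.67 and -3.56 to -0.92 and -1.04. This is the brighter of its 2 tested probes, and the other differed by 4.05. Ccr7, which guides cells to lymphoid T cell zones, rose by 1.36 (SE 0.085, adjusted p = 0.0021), and Ccr10 rose by 0.82 (SE 0.12, adjusted p = 0.011). The call for Ccr10 was lost without imatinib 1 (adjusted p = 0.081) and without imatinib 2 (0.060). Ccr6 differed by 0.01 (SE 0.066, adjusted p = 0.91). Of the members' receptor genes described here, Ccr4 passed, Ccr8 did not, and Ccr1 and Ccr2 were not well above background on any array, so they were not tested.

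**Figure D5:**
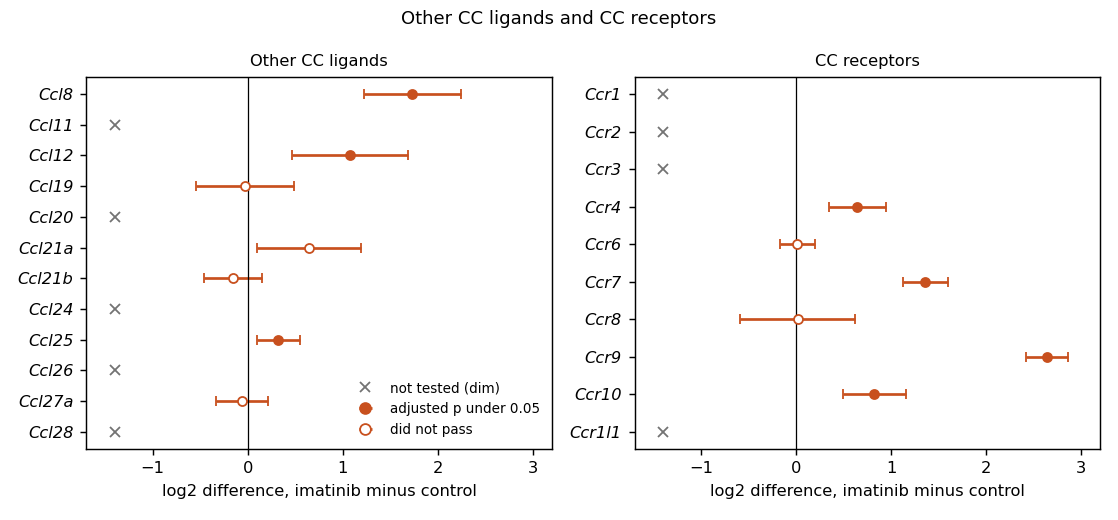
The log2 difference (imatinib minus control, x axis, bars are 95% intervals of the limma fit) of the other CC ligand genes (left) and the CC receptor genes (right), filled where the adjusted p was under 0.05, open where it was not, and crosses for genes too dim to be tested. Ccr9 lies farthest to the right at 2.64, and most of the remaining tested genes lie between 0 and 2. Ccl8 was not above background without imatinib, so its interval does not limit the rise.

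Of 4 listed atypical receptors, which do not signal through G proteins, Ackr2 (Ccbp2 in the files), a scavenger of inflammatory ligands, fell by 1.02 (SE 0.093, adjusted p = 0.0046) and none rose (median -0.64). Its levels were -1.05 and -1.24 with imatinib and -0.08 and -0.18 without. Of 15 genes of receptor signalling and desensitisation, 5 rose and 2 fell, with a median of -0.0025. Grk3 (Adrbk2 in the files), a receptor kinase, was not above background without imatinib. On the processed signal it was at least 5.77-fold higher with imatinib (adjusted p = 0.00071). Its log2 difference was 0.79 with normexp and 1.96 in the log2 table that the authors deposited, both below that bound. Rgs2 and Rgs1, which speed the shutdown of G protein signals, rose by 2.66 (adjusted p = 0.00067) and 1.48 (adjusted p = 0.0042). The adaptor gene Arrb1, beta-arrestin 1, rose by 1.08 (adjusted p = 0.0038). The 2 genes that fell, Grk5 and Grk6, differed by -0.36 (adjusted p = 0.029) and -0.26 (adjusted p = 0.033), and neither call held when any 1 array was left out.

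Every member kept its direction and its call under all planned settings in which it was tested. When each array was left out in turn, the adjusted p of the members ran up to 0.021 for 9 of them and to 0.04998 for Ccl5 (difference 0.84 to 1.01). Over all alternatives the Ccl5 difference ran from 0.64 to 1.01, and that of Ccl1 from 3.88 to 4.75.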

How the data were processed

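RNA of 4 samples was hybridised to Agilent 1-colour arrays of design 026655, all on 1 slide. Per the file headers, spot intensity came from Feature Extraction 9.1.3.1, whose processed signal has the background subtracted and a spatial trend removed. The authors deposited a log2 table as well, made in GeneSpringGX per the series' design text, with the version not given in the sources used here. Its columns equalled log2 processed signal less an array constant, within 0.01, for 99.88% to 99.93% of probes, and had medians of -3.99, -3.92, -4.10 and -4.17.

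Here, log2 processed signals were averaged over a probe's spots, outlier spots left out, and each array's 75th percentile over non-control spots was subtracted. Testing required a signal well above background on every array of the imatinib or of the control group, which left 25375 probes, with 92 dropped for outlier marks. limma 3.58.1 in R 4.3.3 compared the groups (group as the only term, 2 residual and 2.05 prior degrees of freedom, two-sided, Benjamini-Hochberg over all tested probes). The script was tested on simulated data. With 2 arrays in each group the smallest exact permutation p is 0.333, and the number of arrays limits the precision. Where a listed gene had several probes, the brightest was used. Members, lists, the rule for named genes (all members, their receptors, and up to 4 called genes of a list with the largest change) and settings were chosen with earlier results of these data known. Motifs, neighbours and further list members were named after their values were seen. Some genes of the lists are not reported here. Same-numbered deviations had a correlation of -0.10 over probes, which with 2 arrays in each group cannot show whether replicates were paired.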

Additional observations from a re-analysis of the deposited data

How the results depend on the processing

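All 10 members were called higher, and none lower, in every setting that tested them; 9 were tested when only probes above background on all 4 arrays were kept. With 2 arrays a group, dim genes are limited by the background correction, and Ccl2, Ccl6, Ccl7, Ccl9 and Ccl17 had a log2 difference more than 1.5 times smaller with normexp; the cause was not tested. Over all probes, 4905 higher and 5717 lower calls became 3305 and 9251 with median centring (a shift of -0.19 in the overall median), 2810 and 11722 with spike-in scaling and 2837 and 2134 without a filter on dim probes. Leaving out 1 array gave 1908 to 4440 higher and 621 to 4037 lower calls.

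The 3 higher calls of the other CC ligands became 1 without the filter and 1 with only probes above background on all arrays, and 1 to 2 when an array was left out; their lower calls, none at first, became 1 with median centring and 2 with spike-in scaling. The 4 higher calls of the CC receptors became 2 to 4 when an array was left out, and 1 receptor was lower under spike-in scaling. The single lower call of the atypical receptors became 2 under median centring, spike-in scaling and the variance model with trend and robust fitting, and 1 to 2 when an array was left out. The 2 lower calls of receptor signalling became 1 under quantile normalization, 7 under spike-in scaling, 0 without the filter and 0 in each fit without 1 array.

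With the replicate number as a block, 3509 probes were lower and 3655 higher, receptor signalling had 0 lower calls, and all 10 members stayed higher. With the pairing crossed (chosen after seeing the data), 4675 probes were higher and 4955 lower, and receptor signalling had 1 lower call. Causes of these changes were not tested.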

Other observations

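The 2 tested Ccl19 probes differed by -0.03 (SE 0.19) and 0.01 (SE 0.16), and neither passed (adjusted p = 0.91 and 0.95). Of the 4 Ccl27a probes, the brightest differed by -0.06 (SE 0.097, adjusted p = 0.65), 1 passed at -0.44 (SE 0.083, adjusted p = 0.021), and the other two differed by -0.42 (adjusted p = 0.11) and -0.44 (adjusted p = 0.055). For Ccl2, the SD of log2 signal between its 10 spots was 0.084 and 0.078 with imatinib, against 0.18 and 0.088 without.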
